A study of Mus musculus with 11 samples.

Results

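The fecal miRNA profile of uninflamed mice was described from 4 small RNA libraries of the group sampled before dextran sulfate sodium (DSS), out of 11 libraries in the series. DSS is a polymer that injures the colon lining when drunk. Later groups were sampled after 5 days of 2.5% DSS and after 7 further days of recovery, and they are not compared here. The mice were C57BL/6, an inbred strain. The labels of these samples name no genotype change and no agent given before sampling, and they give neither age nor sex. They do not say whether the libraries came from separate mice, so the spread between libraries may be technical in part. The members were chosen by the phase label alone. The deposited columns are named by another day than the sample titles and were matched to the group because they are the set of 4 that belongs to neither later phase. Libraries are numbered 1 to 4 as in these columns.

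A miRNA is a short RNA cut from a hairpin precursor. Either arm of the hairpin, named 5p or 3p, can be loaded into an Argonaute protein, where bases 2 to 8, the seed, choose the mRNAs to be repressed. Feces carry miRNAs from shed gut epithelium and from other cells whose RNA reaches the gut lumen, and a few tissues have miRNAs known to mark them. Fewer cells of a type and less RNA per cell cannot be told apart in such samples.

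Of 616 rows in the table, 458 had a count in at least 1 of these libraries. The 4 libraries held 30418, 13240, 20580 and 27870 counts, 92108 in all. Library 2 had the lowest total and stood apart from the others, so several results that rest on it are given with and without it. In total, 22.5% to 30.4% of its counts would have to be moved to other rows to match another library, where libraries 1, 3 and 4 differed from each other by 7.61% to 11.8%. Pearson's r of log2(CPM + 100) over 156 rows was 0.821 to 0.865 with library 2 and 0.956 to 0.966 among the others. These correlations are across rows of libraries prepared alike and are given as a description.

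The mature sequences of leading miRNAs are shown to mark which share a seed, printed in capitals. They are from RefSeq (GRCm38.p6), 5′ to 3′.
let-7f-5p: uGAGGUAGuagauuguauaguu
let-7i-5p: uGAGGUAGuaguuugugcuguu
miR-21a-5p: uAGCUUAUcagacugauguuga
miR-148a-3p: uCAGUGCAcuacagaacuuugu
miR-192-5p: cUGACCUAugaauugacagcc
miR-215-5p: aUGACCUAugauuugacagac
miR-194-5p: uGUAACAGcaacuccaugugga
miR-200a-3p: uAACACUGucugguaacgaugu
miR-200b-3p: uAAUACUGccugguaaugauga
miR-192-5p and miR-215-5p have 1 seed, and so have both let-7 members, while the seeds of miR-200a-3p and miR-200b-3p differ. Of 544 miRNA rows, 461 matched a RefSeq mature sequence by name, and these held at least 91.0% of the counts of each library.

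The profile was concentrated in few miRNAs. miR-21a-5p, miR-148a-3p and miR-192-5p together made up 52.2%, 33.3%, 46.7% and 54.4% of the counts of libraries 1 to 4, a mean of 46.7% ± 9.5 (SD, n = 4). The 10 most abundant rows made up 63.3% ± 8.9 (SD, n = 4), and 67.5% on average without library 2. Within a library, 3, 9, 4 and 3 rows sufficed for 50% of the counts and 42, 61, 50 and 40 rows for 90%. Library 2 was the least concentrated by each of these measures.

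**Figure D1:**
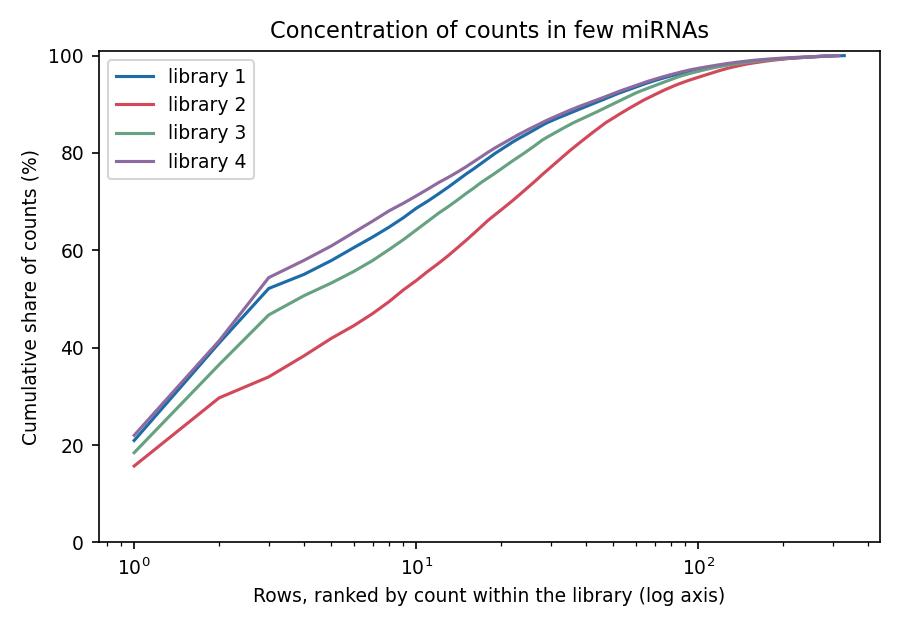
Cumulative share of miRNA counts (%) against the rank of the row within its library (log axis), 1 line for each of the 4 libraries. The lines of libraries 1, 3 and 4 reach 50% within 3 or 4 rows and that of library 2 at 9 rows.

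The first place was shared by a pair of miRNAs. miR-21a-5p, a miRNA of many growing and inflamed tissues, had 6370, 2078, 3794 and 5409 counts in libraries 1 to 4, or 20.9%, 15.7%, 18.4% and 19.4% of the counts, a mean of 18.6% ± 2.2 (SD, n = 4). miR-148a-3p, which is abundant in digestive and secretory tissues, had 6089, 1853, 3720 and 6132 counts and a mean of 18.5% ± 3.4 (SD, n = 4). The ratio of their counts was 1.05, 1.12, 1.02 and 0.88, a mean of 1.02 ± 0.10 (SD, n = 4), so neither stood above the other beyond the spread. miR-21a-5p was first in 3 libraries and second in library 4, where miR-148a-3p led. The hairpin of miR-21a lies at chr11:86584067-86584158 in an exon of Vmp1, on its strand, and that of miR-148a at chr6:51269812-51269910 outside annotated host genes (GRCm38, GENCODE M21).

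Next in rank was miR-192-5p. This miRNA of intestinal epithelium had 3411, 476, 2105 and 3622 counts, or 11.2%, 3.60%, 10.2% and 13.0%, with a mean of 9.51% ± 4.11 (SD, n = 4). Library 2 lay below the others, with an exact 95% interval of 3.28% to 3.93%, and without it the mean was 11.5% ± 1.4 (SD, n = 3). All other rows were below 3% on average. miR-378a-3p, encoded within Ppargc1b, a gene of oxidative metabolism, had 2.63%, 0.846%, 3.95% and 3.54%, again lowest in library 2.

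Ranks 5 to 20 held 4 members of the let-7 family (let-7f-5p, let-7i-5p, let-7g-5p and let-7c-5p), miR-9-5p and miR-9b-3p, miR-215-5p, miR-200a-3p, miR-194-5p, miR-26a-5p, miR-27b-3p, miR-7a-5p, miR-200b-3p, miR-10a-5p, miR-30a-5p and miR-30d-5p. Their mean shares ran from 2.67% for let-7f-5p to 0.883% for miR-30d-5p. In 13 of the 15 steps down this order the difference in mean share was smaller than the SD of either neighbour. The exceptions were let-7f-5p above miR-9-5p and let-7g-5p above miR-26a-5p. Of the rows of the top 20, 15 were in the own top 20 of all 4 libraries, and 17 of libraries 1, 3 and 4.

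**Figure D2:**
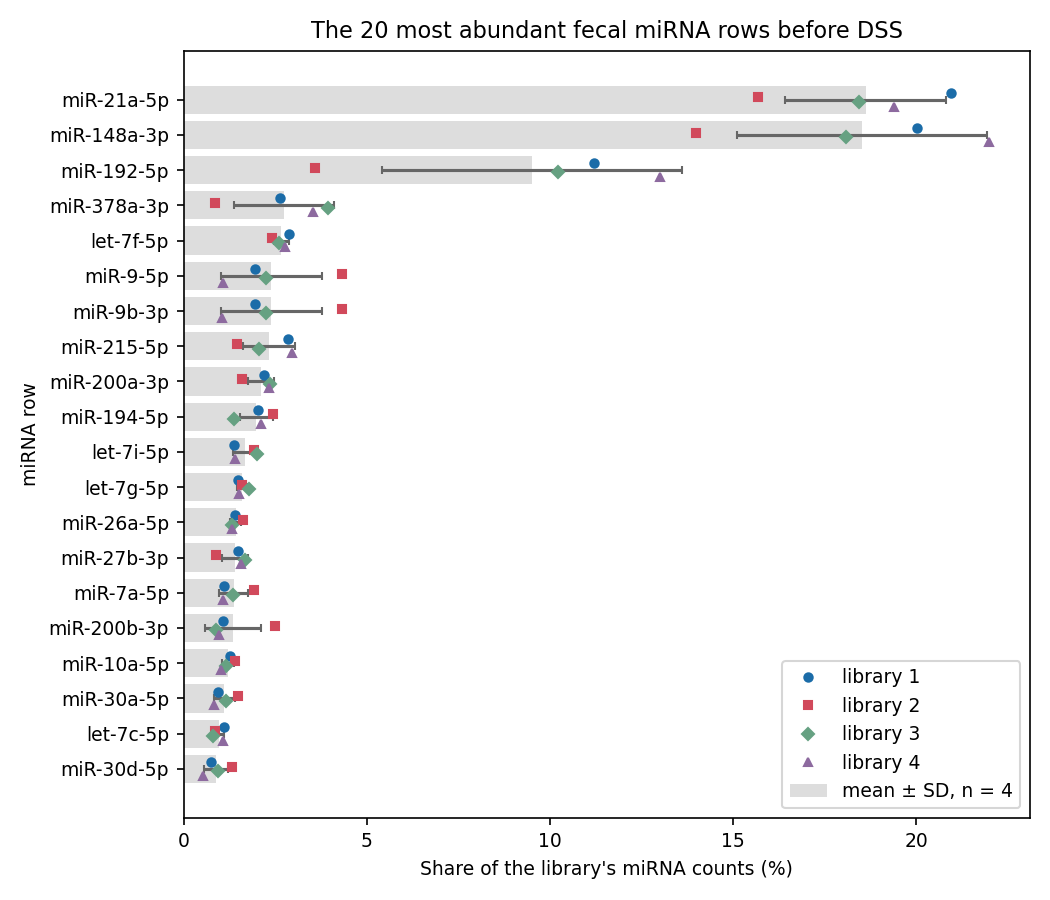
Share of the library's miRNA counts (%) for the 20 rows with the highest mean share. Bars are means with SD (n = 4) and symbols are the 4 libraries, and library 2 lies below the others for miR-21a-5p, miR-148a-3p, miR-192-5p and miR-378a-3p and above them for miR-9-5p and miR-200b-3p.

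Below the top the profile was long and thin. Rows with a count in all 4 libraries held 98.7% to 99.1% of each library. A further 131 rows had counts in 1 library only, and 89 rows had 1 count in all. Libraries 1 to 4 had 329, 286, 304 and 315 rows with a count. At 13240 counts, the lowest total, 265, 286, 269 and 253 rows are expected by exact rarefaction. Library 2, lowest in rows as counted, was therefore highest at equal depth. At these totals 3 counts are 0.00986% to 0.0227% of a library, and a miRNA below that could be missed. The 72 numbered rows without a miRNA name, 47 of them with a count, made up 0.326% ± 0.027 (SD, n = 4).

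Several rows had the same or nearly the same counts as another row. Whether such rows count the same reads was not tested. Among miRNAs with RefSeq positions, 15 pairs lie on opposite strands and overlap by at least 15 bases, and 9 of these pairs had at least 20 counts in a member. In 6 of the 9 both rows had counts that differed by at most 2 in every library. The sequences of the 2 most abundant such pairs are shown because each is the complement of its partner, with capitals on the shared stretch.
miR-9-5p: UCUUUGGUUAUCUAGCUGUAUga
miR-9b-3p: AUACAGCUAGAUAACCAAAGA
miR-24-3p: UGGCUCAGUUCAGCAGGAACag
miR-3074-5p: GUUCCUGCUGAACUGAGCCAgu
miR-9-5p had 593, 572, 462 and 296 counts and miR-9b-3p 593, 572, 461 and 295. The 21 shared bases are the same at 3 loci, on chromosomes 3, 7 and 13. miR-24-3p and miR-3074-5p both had 174, 69, 147 and 177 counts. Which strand the reads came from cannot be told from the counts. Other opposite pairs did not behave so: miR-126a-3p had 163 counts and miR-126b-5p 0, and miR-203-3p had 154 and miR-203b-5p 15, and miR-30e-3p had 61 and miR-30f 20. Rows whose counts repeat those of another row, 9 in all, held 3.46%, 6.83%, 4.18% and 2.43% of the counts of libraries 1 to 4.

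The tissue of origin was described with lists of marker miRNAs. The defining set of gut epithelium was present: miR-192-5p, miR-194-5p, miR-215-5p, miR-200a-3p, miR-200b-3p, miR-200c-3p and miR-429-3p had counts in every library, and miR-141-3p in every library but library 2. The intestinal epithelium list, the arms of miR-192, miR-194 and miR-215, held 16.4%, 7.64%, 13.9% and 18.4% of the counts, a mean of 14.1% ± 4.7 (SD, n = 4) and 16.3% ± 2.2 (SD, n = 3) without library 2. In this list miR-215-5p, the seed relative of miR-192-5p, had 2.85%, 1.45%, 2.05% and 2.96% of the counts. miR-194-5p, which is transcribed with either of them, had 616, 323, 281 and 587 counts. Its hairpins lie at chr19:6264643-6264728 beside miR-192 and at chr1:185313319-185313385 beside miR-215, and the counts do not say from which of these it came. The ratio of miR-192-5p to miR-194-5p counts was 5.54, 1.47, 7.49 and 6.17, lowest in library 2.

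The miR-200 family, which keeps epithelial cells from taking on a mesenchymal state, held 4.25%, 5.05%, 4.26% and 4.42%, a mean of 4.49% ± 0.38 (SD, n = 4). Its sum varied less, relative to its mean, than those of miR-200a-3p and miR-200b-3p. miR-200a-3p had 664, 212, 486 and 648 counts and miR-200b-3p 324, 330, 181 and 267, although their hairpins are neighbours on chromosome 4, at chr4:156054896-156054985 and chr4:156055681-156055750 in introns of Ttll10. The ratio of miR-200a-3p to miR-200b-3p counts was 2.05, 0.642, 2.69 and 2.43, so the order of the pair was turned in library 2 alone. miR-429-3p of the same cluster stayed with miR-200a-3p, at a ratio of 10.7, 8.48, 9.53 and 7.62 for miR-200a-3p to miR-429-3p. miR-141-3p, a member from another cluster, had 32, 0, 25 and 30 counts. The 0 in library 2 allows up to 0.0227%, where the other libraries stood at 0.105%, 0.121% and 0.108%. It was the one row of at least 5 expected counts in library 2 that had none there.

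miRNAs of secretory and endocrine epithelium held 2.64% ± 0.63 (SD, n = 4). miR-7a-5p, a miRNA of endocrine cells, led with 337, 256, 276 and 303 counts, followed by miR-182-5p and miR-183-5p of the sensory miR-183 cluster. miR-375-3p, which marks endocrine and goblet cells, had 53, 22, 57 and 76. Squamous epithelium, as in the anal canal and skin, was represented by miR-203-3p with 73, 9, 24 and 48 counts, while miR-205-5p, its most specific marker, had 0, 4, 1 and 0. The squamous list held 0.198% ± 0.072 (SD, n = 4).

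The neuron list held 2.54%, 5.69%, 2.93% and 1.43%, a mean of 3.15% ± 1.81 (SD, n = 4). Without library 2 the mean was 2.30% ± 0.78 (SD, n = 3). Most of it was 1 miRNA. miR-9-5p, a miRNA of neural progenitors and neurons, made up 1.95%, 4.32%, 2.24% and 1.06% of the counts. Among the others, miR-128-3p had 93, 89, 60 and 40 counts, miR-218-5p 45, 32, 46 and 25, and miR-124-3p, the most neuron-specific of them, 13, 15, 10 and 13. Library 2 was highest and library 4 lowest for the sum.

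Of blood, red cell miRNAs were present and leukocyte miRNAs were near the limit. miR-451a, which is matured in red cells by Argonaute 2 without Dicer, had 0.523%, 0.937%, 0.739% and 0.484% of the counts and a mean of 0.671% ± 0.210 (SD, n = 4). miR-144-3p, from the same transcript, had 0 counts in all 4 libraries, which allows up to 0.00326% of the 92108 counts. The red blood cell list held a mean of 1.48%, and 1.17% without library 2, with both arms of miR-486a in the sum. The counts of these arms are nearly the same, and the mean was 1.13% with near-identical rows merged. The leukocyte list had 25 counts in all, 0.0295% ± 0.0112 (SD, n = 4), and 5 of the 8 members with a row had any count. miR-342-3p had 3, 5, 3 and 2 of them. The hairpin of miR-142a, which marks blood cell lineages, had 1, 1, 0 and 5 counts on 5p and none on 3p. miR-155-5p, a miRNA of activated lymphocytes, had none.

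Stroma, muscle, vessels and liver gave small shares. Smooth muscle and stroma held 0.842% ± 0.271 (SD, n = 4), of which miR-143-3p had 247, 142, 139 and 134 counts. miR-145a-5p, its partner in smooth muscle, had 0, 0, 1 and 2, so that 1 of the 2 defining markers was nearly absent. miR-126a-3p of endothelium had 48, 38, 44 and 33 counts. miR-1a-3p of striated muscle had 21, 6, 13 and 12, identical to the row miR-1b-5p. In the same list miR-206-3p had 18, 1, 8 and 7 counts. miR-133a-3p, the other defining marker of striated muscle, had 3, 0, 0 and 0, miR-499-5p 0, 0, 0 and 2, and miR-133b-3p none. miR-122-5p, the leading miRNA of liver, had 93, 19, 29 and 44, identical to the row miR-122b-3p. Library 1 stood above the others for miR-122-5p at 0.306% (exact 95% interval 0.247% to 0.374%). Pancreas miRNAs had 2 counts in all.

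Lists of broadly expressed families filled much of the rest. The let-7 family, which holds back growth in differentiated cells, had the smallest SD relative to its mean of the lists with counts, with 8.38%, 8.36% and 8.22% in libraries 1, 2 and 4 and slightly more in library 3, a mean of 8.49% ± 0.35 (SD, n = 4). All 9 listed members had counts in every library. The miR-10 and miR-99/100 family held 3.06% ± 0.85, the miR-30 family 2.52% ± 0.72, the miR-23, miR-27 and miR-24 group 2.39% ± 0.45 and miR-17-92 with its paralogs, which promote proliferation, 1.13% ± 0.33 (SD, n = 4 each). The imprinted Dlk1-Dio3 cluster, active in brain, muscle and embryo, held 0.719% ± 0.333 (SD, n = 4). Of its 41 members with a row 33 had a count and 11 had counts in all 4 libraries, led by miR-127-3p with 50, 43, 40 and 28. Multiciliated cell miRNAs had 47 counts in all, mostly miR-34c-5p, and none of the 10 members of the early embryo miR-290 cluster was among the rows used, so the list has no measured member.

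**Figure D3:**
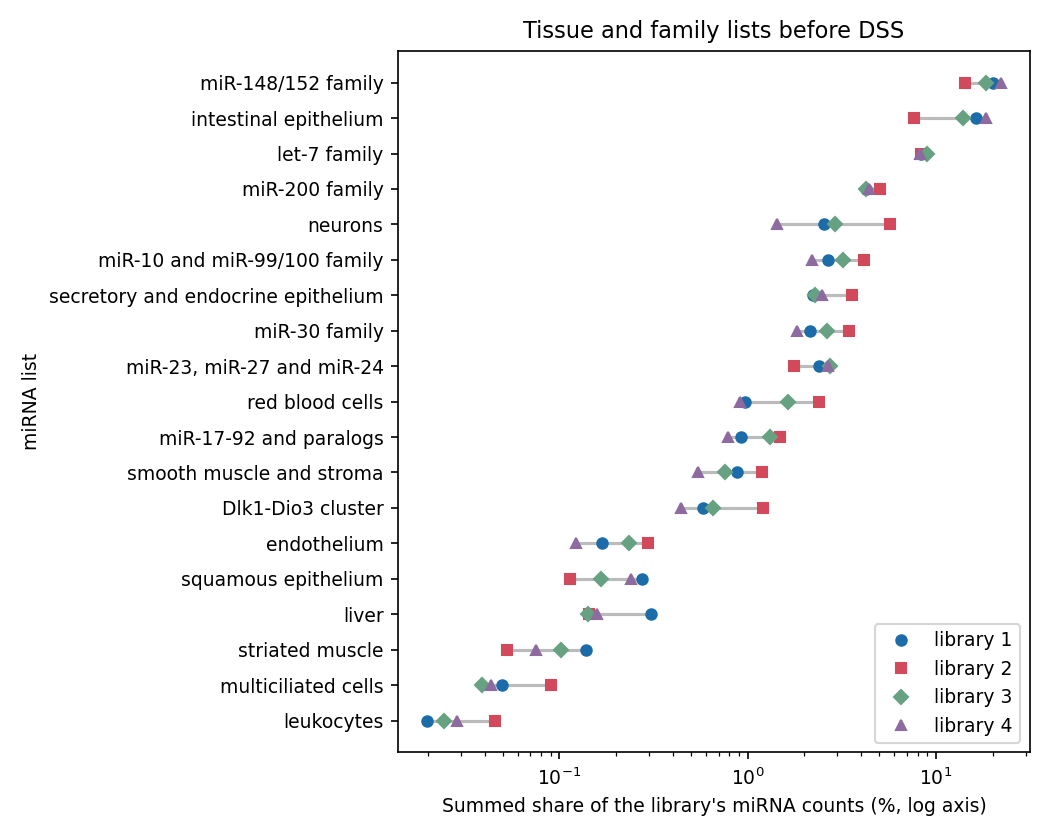
Summed share of the library's miRNA counts (%, log axis) for 19 lists with counts in every library, 1 symbol per library with a line from the lowest to the highest. The let-7 symbols coincide near 8.49%, and library 2 is lowest for intestinal epithelium and highest for neurons and red blood cells.

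Grouped by seed, with repeated rows counted once, 347 rows fell on 289 seeds. The seeds of miR-148a-3p (18.7% ± 3.4), miR-21a-5p (18.6% ± 2.2), miR-192-5p with miR-215-5p (11.8% ± 4.8) and let-7 (8.49% ± 0.35) led (SD, n = 4 each), and the first 10 seeds held 69.3% ± 8.4 (SD, n = 4). Rows without a matched sequence are not in this grouping. Among them is miR-378a-3p with a mean of 2.74%, which would stand among the first 10 seeds. The seed of miR-30a-5p, ranked 11 at 1.54%, lacks the unmatched miR-30d-5p (0.883%) and miR-30b-5p (0.0969%) of that family. The order of seeds and the sum of the first 10 therefore hold for matched rows only. Of the 4 leading seeds, that of let-7 had the most rows, 9. miR-148b-3p and miR-152-3p, which share the seed of miR-148a-3p, added 0.157% and 0.0480% on average. A uridine was the first base of 74.8% ± 0.5 (SD, n = 4) of the matched counts, against 41.4% of the matched rows, and the counts lay on sequences of 21.9 bases on average. These are annotated sequences, since the files hold no reads.

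In arm use, most hairpins gave nearly all of their counts from 1 arm. Both arms were listed for 156 hairpins, and 87 of these had at least 20 counts. Of the 87, 77 had a dominant arm, defined as at least 80% of the pooled counts and a majority in every library. It was the 5p arm for 47 and the 3p arm for 30. Some of these hairpins hold a row with the same counts as another row. Without them, 70 of 79 had a dominant arm, 44 on 5p and 26 on 3p. The median share of the major arm was 96.8%, and 16 hairpins had no count on the minor arm. Over all rows, 5p names held 58.0% ± 2.1 and 3p names 38.7% ± 1.4 of the counts (SD, n = 4 each). These shares include repeated rows, among them miR-9b-3p with a mean of 2.39%.

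The 3 most abundant hairpins were almost wholly one-sided. miR-21a had 17651 counts on 5p and 0 on 3p. miR-148a had 9 on 5p and 17794 on 3p, so that the 5p arm made up 0.0506% (exact 95% interval 0.0231% to 0.0959%). For miR-192 it was 9614 on 5p and 1 on 3p. miR-215, the relative of miR-192, kept a measurable minor arm: its 5p arm made up 91.0%, 91.4%, 88.1% and 91.2% of the counts of libraries 1 to 4. miR-200a, added after its values were seen, had 5p as its minor arm, at 14.5%, 15.5%, 10.8% and 16.2% of the counts. The share of the major arms themselves, miR-215-5p and miR-200a-3p, was lowest in library 2.

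The most balanced hairpins were miR-486a (50.2% on 5p), miR-423 (67.2%), miR-434 (68.3%), miR-574 (70.0%) and miR-28a (75.0% on 3p), by pooled counts. The rows of both miR-486a arms had counts within 2 of each other in every library, and whether they count 1 set of reads was not tested. miR-423 rested on 236 counts of 5p and 115 of 3p and kept its order in each library, at 71.3%, 64.4%, 64.1% and 69.2% of 5p. miR-574 and miR-28a had 20 and 32 counts, and the majority arm was not kept in every library.

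**Figure D4:**
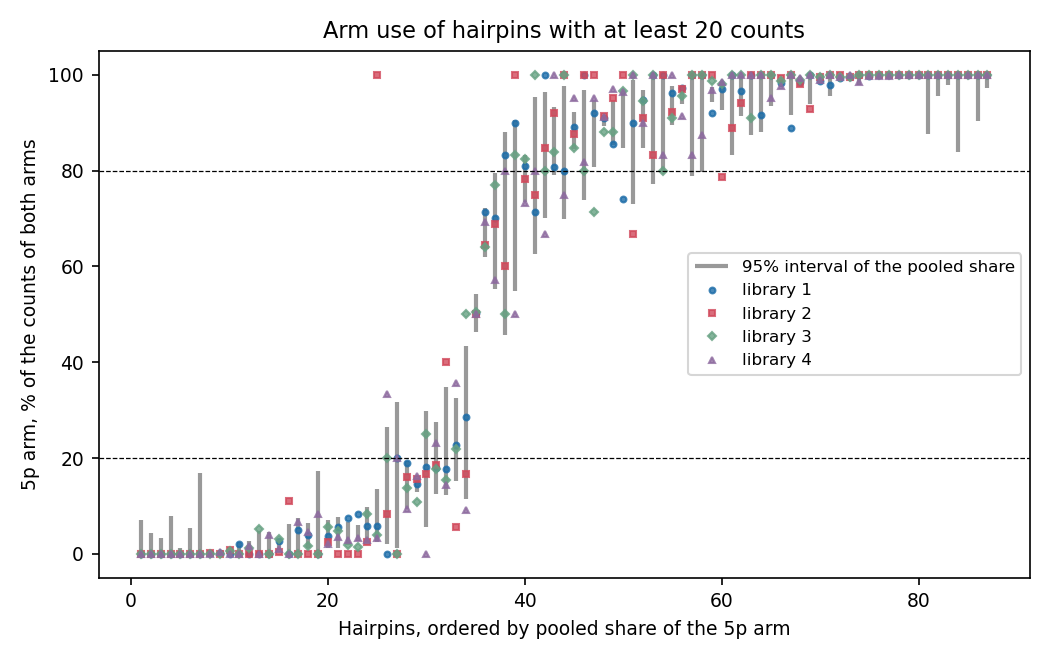
The 5p arm as % of the counts of both arms, for 87 hairpins with at least 20 counts, ordered by the pooled share. Lines are exact 95% intervals of the pooled share, symbols the 4 libraries and dashed lines the dominance limits, and the pooled share lies outside these limits, with the majority kept in every library, for 77 hairpins. Single libraries scatter for hairpins with few counts.

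Arm shares were tested between libraries with Fisher's exact test in the 37 hairpins with at least 5 counts on the minor arm. After Benjamini-Hochberg adjustment 4 passed (10.8%), miR-24, miR-425, miR-3074 and miR-141, each with an adjusted p of 0.0409 by this exact test. miR-24 had 16, 0, 2 and 6 counts on 5p, all in the row of the miR-24-2 hairpin, beside 174, 69, 147 and 177 on 3p, and miR-3074 has the same counts on opposite arms within 1. miR-141 had 2, 2, 1 and 1 counts on 5p beside 32, 0, 25 and 30 on 3p. No call was left without library 1, without library 2, or without hairpins that hold a repeated row. The test compares these libraries, not conditions.

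The spread of single miRNAs was tested against counting error. A chi-square test of 117 rows with at least 5 expected counts in each library found that 79 (67.5%) differed in share between the libraries at a Benjamini-Hochberg adjusted p under 0.05. All 4 tested members of the intestinal epithelium list and all 5 of the neuron list were among them. So were all 6 of the miR-10 and miR-99/100 family and all 4 of secretory and endocrine epithelium. The red blood cell list and the family of miR-148a-3p had all 3 called in each. Other lists were called in part, such as 5 of 6 of the miR-200 family and 3 of 9 of the let-7 family. With 67.5% of all tested rows called, nothing is read from full calling in any 1 list. Without library 2, 37 of 139 tested rows differed, and 36 of these were among the 79. The coefficient of variation between libraries beyond counting error, estimated by edgeR from 156 rows, was 0.414, and 0.204 without library 2. Leaving out library 1, 3 or 4 it was 0.446, 0.474 and 0.438.

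The rows nearest to counting error among the 77 with at least 100 counts were miR-30e-5p, miR-101b-3p, miR-16-5p, miR-23a-3p and miR-744-5p, with chi-square values per degree of freedom of 0.701 to 1.35. miR-30e-5p had 72, 36, 56 and 60 counts, or 0.237%, 0.272%, 0.272% and 0.215%. let-7f-5p, far more abundant, had 2.85 per degree of freedom and a coefficient of variation of 7.50%. The largest values were those of miR-6538 (495), miR-192-5p (262), miR-9b-3p (154), miR-9-5p (154) and then miR-3470a. Among libraries 1, 3 and 4 alone, miR-9-5p and its repeat still led with 56.4 and 56.6, then miR-148a-3p (45.6), miR-192-5p (42.1) and miR-378a-3p (36.1).

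In many of these rows library 2 was the extreme. By share it was above the others in 70 of 117 rows (59.8%) and below them in 26 (22.2%), and the median log2 ratio to the mean of the others was 0.61. Libraries 1, 3 and 4 were highest by share in 9, 20 and 18 of these rows and lowest in 27, 14 and 50. Library 2 thus stood out by share in its high rows, while library 4 was most often lowest. With TMM factors, which set the bulk of the rows equal, library 2 was above the others in 47 rows and below them in 43, and its median was 0.09. Many directions in library 2 held under both scalings, and the rows named here are examples and not the full set. Lower were miR-192-5p (0.313 times the mean of the others by share and 0.214 times with TMM), miR-378a-3p (0.251 and 0.174), miR-203-3p (0.386 and 0.260) and miR-215-5p (0.553 and 0.375). Higher were miR-200b-3p (2.58 and 1.76), miR-9-5p (2.47 and 1.73), miR-128-3p (2.72 and 1.90) and miR-486a-5p (2.43 and 1.73). The miR-200 family sum was 1.17 times the others by share and 0.804 times with TMM, so its direction turned with the scaling, as did those of miR-194-5p (1.33 and 0.901) and let-7i-5p (1.20 and 0.837). Library 2 also had the lowest total, and the part of depth in these differences was not tested.

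Among the 117 tested rows, the 6 with the largest ratio of library 2 to the others were miR-3470a, miR-6538, miR-690, miR-6240, miR-3470b and miR-5126. miR-6538 had 23, 342, 33 and 32 counts, or 2.58% in library 2 (exact 95% interval 2.32% to 2.87%) and 0.117% ± 0.042 (SD, n = 3) in the others. miR-3470b had 39, 130, 42 and 32 counts, miR-3470a 7, 102, 8 and 11, miR-6240 5, 75, 13 and 6, and miR-5126 43, 83, 50 and 42. miR-690, chosen after its values were seen, had 6, 67, 2 and 11. Each of these 6 rows was highest in library 2 under both scalings, for example 22.1 times by share and 15.5 times with TMM for miR-6538. miRNAs numbered 1000 or higher made up 0.812%, 6.28%, 1.17% and 0.800% of the counts of libraries 1 to 4, and the 5 most abundant of them held 88.0% of that sum in library 2. Library 2 was highest for 7 of the 10 with at least 20 counts, near the 59.8% of all tested rows, so nothing is read from that count for the class, which was chosen after seeing the values. The mature sequences of 4 of the 6 rows are shown for their base composition, seeds in capitals. Those of miR-690 and miR-3470a are not shown, so nothing is read for the base composition of the 6 as a set.
miR-6538: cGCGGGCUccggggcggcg
miR-3470b: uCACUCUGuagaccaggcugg
miR-6240: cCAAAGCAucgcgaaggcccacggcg
miR-5126: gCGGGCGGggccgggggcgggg
They hold 94.7%, 57.1%, 69.2% and 100% G and C, where miR-21a-5p holds 36.4% and miR-192-5p 47.6%. Matched rows with over 70% G and C took 0.237%, 3.51%, 0.443% and 0.286% of the matched counts of libraries 1 to 4. Nearly all of these counts are those of miR-6538 and miR-5126, already named for their values in library 2. The class therefore adds nothing about base composition beyond these rows.

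**Figure D5:**
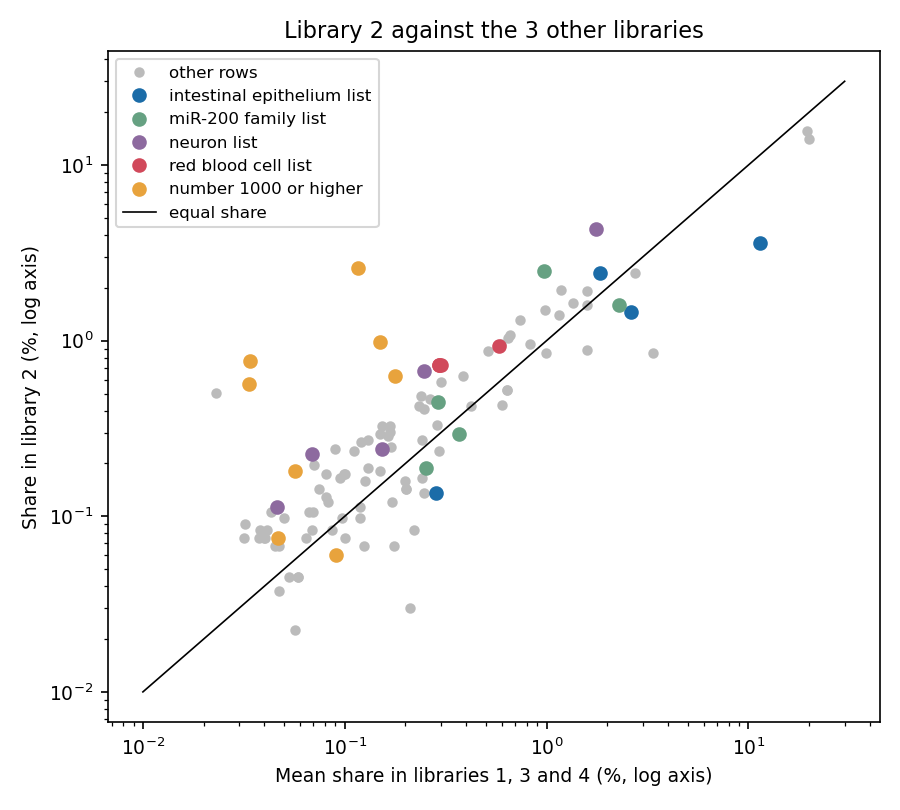
Share in library 2 (%, log axis) against the mean share in libraries 1, 3 and 4 (%, log axis) for 116 tested rows with a count in library 2, with the line of equal share. miR-6538 lies at 2.58% against 0.117%, and miR-192-5p, the rightmost intestinal epithelium point, at 3.60% against 11.5%.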

How the data were processed

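Fecal RNA was extracted with a mirVana kit and sequenced from TruSeq small RNA libraries on an Illumina HiSeq, per the labels' protocols. ACGT101-miR removed junk, ribosomal, transfer and other common RNA classes and repeats before counting, per the labels' protocols, so nothing can be said of the miRNA share of fecal RNA. No source used here names the aligner, the miRNA release or the genome build. The authors deposited raw counts per row and library. The 4 count columns of the before-DSS group were used, and 11 columns named as TPM were not mapped or used. Totals are miRNA counts that passed the authors' filters, not sequencing depth.

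Shares are counts over the library's total, averaged with equal weight per library. List shares count rows with identical counts once. Intervals are exact (Clopper-Pearson, 95%). Intervals and floors (3 counts) cover counting error only, since reads carry no molecular identifiers. Row shares were compared between libraries by chi-square, with 3 degrees of freedom, and arm shares by Fisher's exact test in R 4.3.3, both with Benjamini-Hochberg adjustment and a threshold of 0.05. The coefficient of variation beyond counting error is the root of the common dispersion of edgeR 4.0.16 (TMM, intercept only, rows with at least 20 counts). DESeq2 1.42.0 served as an alternative, and numpy 2.4.6, pandas 2.3.3 and scipy 1.17.1 were used. The tests were checked on simulated data. Alternatives were other scalings, filters, weights and minimums, merging of repeated rows, and leaving out each library. With 1 group no test between groups was made. Named were the 20 most abundant rows, up to 5 members of each list, the 5 most and 5 least variable rows with at least 100 counts, and the 5 most balanced and 5 most abundant hairpins, and the hairpins called by the arm test. No row with at least 20 counts had 80% of them in 1 library. The lists and choices were made with earlier results of these data known.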

Additional observations from a re-analysis of the deposited data

Results flagged for a closer look

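Of 118 values compared over the 4 libraries, 21 (17.8%) had 1 library so far from the others that its gap exceeded Dixon's 95% limit for a group of 4, where chance flags about 1 in 20 groups of ordinary measurements. That rate is no yardstick here, because 8 of the 21 have counts in 1 library alone and so meet the limit by construction, and because some rows and the class of late numbers were chosen for their spread. The explanations of these gaps were not tested.

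Library 2 was far above the others for miR-6538 (2.58% of the counts), miR-3470a (0.770%), miR-200b-3p (2.49%), miR-10b-5p (0.408%), miR-129-5p (0.227%), miR-124-3p (0.113%), miR-20a-5p (0.0982%), miR-199a-5p (0.0453%), miR-205-5p (0.0302%) and the summed rows numbered 1000 or higher (6.28%). It was far below them for miR-215-3p (0.136%). Among the rows where library 2 was high, few counts lie behind miR-205-5p, with 0, 4, 1 and 0, and miR-199a-5p, with 3, 6, 2 and 2. Library 1 was far above the others for miR-122-5p of liver (0.306%), which is also the whole liver list (0.306%). The counts of miR-122-5p and miR-129-5p are identical to those of the rows miR-122b-3p and miR-129b-3p.

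The remaining gaps rest on 1 to 3 counts in a single library. They are miR-133a-3p (0.00986%), miR-217-5p and with it the pancreas list (0.00658% each) in library 1, miR-342-5p and miR-34b-5p (0.00486% each) in library 3, and miR-203-5p and miR-499-5p (0.00718% each) and miR-223-3p (0.00359%) in library 4.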

How the results depend on the processing

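Leaving out library 2 changed the most. The count of rows whose share differed fell from 79 to 37 (72 to 79 without another library), and the coefficient of variation from 0.414 to 0.204 (0.438 to 0.474 without another). The 4 arm calls became 0 without library 1, without library 2, without a minimum on the minor arm, without hairpins that hold an identical row and, chosen after seeing the data, a near-identical row, and stayed at 4 without library 3 or 4, so the range was 0 to 4. Leaving miR-21a-5p out of the total moved the let-7 share to 10.4%, the miR-200 family to 5.52%, the miR-23, miR-27 and miR-24 group to 2.95% and the family of miR-148a-3p to 23.1%. Merging near-identical rows, chosen after seeing the data, moved the let-7 share to 8.87%. The other 228 values computed under alternatives stayed within 1 SD or, for counts, within 1.5 times the count. For mean shares this could not fail when 1 library was left out, since a mean of 4 cannot move by 1 SD that way. The miR-290 list, without a measured member, was fixed at 0 in every setting. The number 228 is therefore no measure of robustness. No paired analysis was possible because there is only 1 group. Low totals limit miRNAs under about 0.0227% of a library.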
